A study of Mus musculus with 12 samples.

Results

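The basement membrane genes described here are Col4a1, Col4a2, Col4a5, Col15a1, Col18a1, Lamc1, Lamb2, Nid1, Hspg2 and Pxdn. They were chosen by name, with earlier results of these data known, from the collagens, laminin chains, linkers and crosslinking enzyme of this matrix. Other components are given as a separate list below. All 10 were found among the 21705 genes of the deposited table. Liver messenger RNA was sequenced for 12 wild-type female C57BL/6J mice of 10 to 12 weeks, 6 given saline and 6 given LNA29. LNA29 is a mixture of locked nucleic acid oligonucleotides against miR-29a and against miR-29b/c, each dosed at 20 mg/kg, and both LNA29 and saline were given by the tail vein. All 12 livers were taken on day 7 after an overnight fast, and each is whole tissue, so that fewer cells of a type and less RNA per cell cannot be told apart. Saline is not an oligonucleotide control, and an effect of LNA chemistry cannot be told apart from inhibition of miR-29 in this comparison.

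The basement membrane is a thin sheet of matrix beneath epithelial and endothelial cells. Chains of type IV collagen assemble into a network, laminin heterotrimers form another, nidogen and perlecan join them, and peroxidasin crosslinks the collagen. The liver sinusoid is known for its sparse basement membrane, which is thicker around portal vessels and bile ducts and which is laid down along the sinusoids in fibrosis. The miR-29 family is known for binding collagen and other matrix messages.

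The mature miR-29 sequences are shown because the treatment was aimed at them and because all 3 have the same seed, bases 2 to 8, in capitals. They are from RefSeq (GRCm38.p6), which places miR-29a on chromosome 6, miR-29c on chromosome 1 and copies of miR-29b on both.
mmu-miR-29a-3p: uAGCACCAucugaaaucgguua
mmu-miR-29b-3p: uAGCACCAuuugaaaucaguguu
mmu-miR-29c-3p: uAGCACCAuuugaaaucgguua

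The reverse complement of that seed, TGGTGCT, was searched on the message strand in 3′ UTRs from GENCODE M21 (GRCm38), taking the longest per gene. It was found in 6 of the 10 basement membrane genes (60.0%), and in 2679 of all 19716 genes searched (13.6%) and 1877 of 12145 genes with a value high enough to be tested (15.5%). The longer form TGGTGCTA, which contains the first, was found in 5 of the 10 and in 2.98% of all genes. Col4a5 had 3 matches, Col4a2 had 2, and Col4a1, Lamc1, Pxdn and Col15a1 had 1 each. Those of Col4a2 were of the 7-base form and those of the other 5 genes of the 8-base form. No match was found in Col18a1, Lamb2, Nid1 or Hspg2, whose UTRs ran from 110 bases in Lamb2 to 2202 bases in Nid1. Such a match is a description of the letters and not evidence of binding.

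The matches are shown in windows of 30 bases, read along the message, with the matched bases in capitals. All lie in the last exon of their gene. For Col4a5 the first of 3 is shown. The windows are chr8:11199754-11199783 on the minus strand for Col4a1, chr8:11448344-11448373 and chr8:11448515-11448544 on the plus strand for Col4a2, chr1:153220061-153220090 on the minus strand for Lamc1, chr12:30015818-30015847 on the plus strand for Pxdn, chr4:47312485-47312514 on the plus strand for Col15a1 and chrX:141688238-141688267 on the plus strand for Col4a5.
Col4a1: gccaccgtcacaacaTGGTGCTActccccc
Col4a2, first: gtgggaaggccacgtTGGTGCTtatccttc
Col4a2, second: ccaccacacccagctTGGTGCTtactctta
Lamc1: tattatctgacacacTGGTGCTAttaatta
Pxdn: ttttaaatggaaaatTGGTGCTActattaa
Col15a1: atccaatccacatatTGGTGCTAgattctg
Col4a5: cactgctcccaccaaTGGTGCTAatatcct

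Values are given in the deposited unit, in which the upper quartile of a liver's expressed genes is 1000. One read was worth between 9.80 and 24.4 of these units, set by the upper quartile of each liver and not by its total reads. The livers had between 7696081 and 19062443 reads on genes. The saline livers had a median of 12012000 reads and the LNA29 livers 9123470. Several basement membrane genes rest on few reads, which are given beside them. Saline liver 49 stood apart: albumin took 35.7% of its reads, against 43.6% to 46.9% in the other 11, and its long transcripts were the most raised relative to short ones. Results that change without it are given without it.

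Of the 10 genes, Col4a2 rose in LNA29 livers, and it was the gene whose groups were fully separate. Col4a1, Nid1 and Pxdn had higher means and Col18a1 a lower mean in LNA29 livers, each with an exact permutation p under 0.05 but without a limma adjusted p under 0.05. Lamc1, Hspg2, Lamb2 and Col15a1 did not pass either test, and Col4a5 had too few reads to compare. The limma test over 12486 genes called 1 of the 10 (Col4a2), where it called 0.160% of all genes tested. The exact permutation test, two-sided over all divisions of the 12 livers into groups of 6 and unadjusted, gave a p under 0.05 for 5 of the 10, against 8.50% of all genes tested. In the higher direction these were 4 of the 10, against 2.15%. The groups did not overlap for 1 of the 10, against 0.985%. Col4a2 was also the 1 gene of the 10 called by edgeR and by DESeq2 on recovered reads, against 0.278% and 0.744% of all genes tested, and in limma with values beyond 1.5 SD discarded, against 1.74%. With all livers shifted to a common median limma called 0 of the 10, against 0.0801%. The median log2 fold change was 0.42 over the 10 genes and 0.45 over the 9 with more than 3 reads in a liver, beside -0.09 over all genes tested. Of those 9, 6 were higher and 3 lower on average, where 4815 of all genes tested were higher and 7671 lower.

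**Figure D1:**
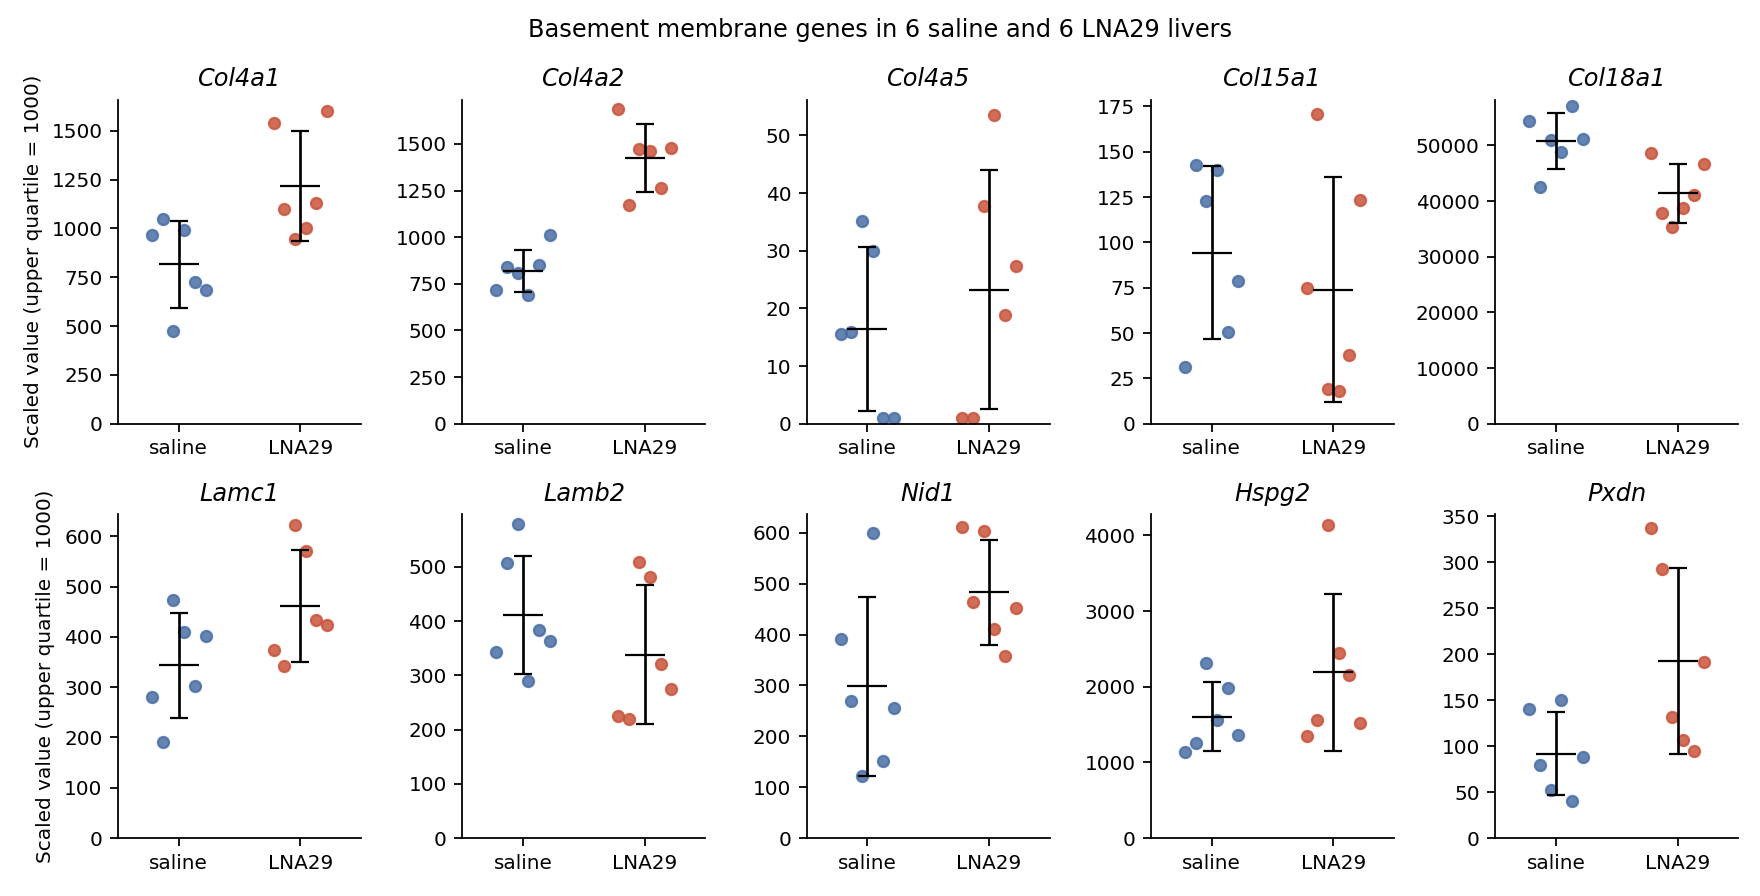
Deposited value (linear axis from 0, upper quartile of a liver scaled to 1000) of each of the 10 basement membrane genes, with a point per liver, and with the mean and SD of 6 livers per group in black. The points of Col4a2 do not overlap between groups, those of Col18a1 overlap through 1 saline liver at 42460, and the points of Col4a5 at 1 are livers without reads.

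Col4a1 and Col4a2 encode the chains of the common type IV collagen network. In saline livers Col4a2 ran from 690.0 through a median of 824 to 1010, and in LNA29 livers from 1171 through 1468 to 1688, on 46 to 135 reads per liver. All 6 LNA29 livers lay above all 6 saline livers. The means were 819 ± 114 and 1423 ± 182 (SD, n = 6 each), with a limma adjusted p of 0.0438 for the log2 fold change of 0.80 (standard error 0.15), and the exact permutation p of 0.00216 is the smallest that 6 against 6 allows. Groups that are separate with all 12 livers stay so when any liver is left out, so that this adds nothing. The limma adjusted p ran from 0.0508 to 0.127 when 1 liver was left out, so that the limma call was lost in each of those 12 fits. The log2 fold change ran from 0.75 to 0.86 in them, and the share of all genes called in them is not given.

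Col4a1 ran from 474 through 848 to 1048 in saline livers and from 943 through 1115 to 1603 in LNA29 livers, on 27 to 123 reads. The groups overlapped, with 4 LNA29 livers above the highest saline liver and 3 saline livers below the lowest LNA29 liver. The means were 816 ± 223 and 1219 ± 281 (SD, n = 6 each), and the log2 fold change was 0.60 (95% interval 0.16 to 1.04), with an exact permutation p of 0.0195 and a limma adjusted p of 0.413. The exact p stayed under 0.05 without each of the 12 livers in turn, from 0.0130 to 0.0476.

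Both genes lie head to head on chromosome 8 and are known to share a promoter region. Their RefSeq starts (GRCm38.p6) are 21 bases apart, Col4a1 on the minus strand from 11312826 and Col4a2 on the plus strand from 11312805. Per kilobase of transcript their median levels were alike in saline livers, 128 for each, and were 169 for Col4a1 and 228 for Col4a2 in LNA29 livers. Within the groups they did not follow each other at this number of livers. The correlation over 6 livers was -0.40 in saline livers (Spearman's rho -0.37, exact permutation p = 0.435 for r and 0.497 for rho) and 0.45 in LNA29 livers (rho 0.43, p = 0.374 and 0.419). Without the 2 livers farthest from the median of Col4a1 it was -0.95 and -0.87, so that the sign in LNA29 livers rests on those livers. With the trend of each library with transcript length removed from the values, it was 0.50 in saline livers and 0.32 in LNA29 livers, so that the sign in saline livers turned.

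Col4a5, a chain of the type IV collagen network of the kidney glomerulus and other specialised membranes, had between 0 and 3 reads in every liver and none in 4 of the 12. Its fitted fold change is not reported as a result, although the median over 10 genes includes it, and the gene with the most seed matches of the 10 could not be compared at this depth.

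Col15a1 and Col18a1 encode the multiplexins, collagens with long sugar chains whose C-terminal fragments are released from the membrane. Col18a1, of which hepatocytes are a known source, had the highest level of the 10 genes. Its median per kilobase was 9134 in saline livers, followed by 128 for both Col4a1 and Col4a2, 103 for Hspg2, 66.3 for Lamb2, 46.2 for Lamc1, 43.1 for Nid1, 19.5 for Col15a1, 12.7 for Pxdn and 2.41 for Col4a5. Saline livers overlapped between all neighbours in this order except at its ends, where Col18a1 lay apart from the collagen IV chains and Col4a5 from Pxdn.

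In deposited units Col18a1 ran from 42460 through 51104 to 57131 in saline livers and from 35321 through 39894 to 48675 in LNA29 livers, on 1549 to 5656 reads. All but 1 saline liver lay above every LNA29 liver. The means were 50829 ± 5032 and 41368 ± 5248 (SD, n = 6 each), and the log2 fold change was -0.30 (95% interval -0.61 to 0.0044), with an exact permutation p of 0.0130 and a limma adjusted p of 0.634. Lower genes were more frequent in the whole table, and 6.34% of all genes tested had an exact p under 0.05 in that direction. The exact p of Col18a1 stayed under 0.05 without each liver in turn, from 0.00866 to 0.0325.

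Col15a1 had 1 to 14 reads per liver and ran from 31.3 through 100.6 to 143 in saline livers and from 17.9 through 56.4 to 171 in LNA29 livers. The LNA29 livers held both the lowest and the highest value. The means were 94.3 ± 47.8 and 73.9 ± 62.1 (SD, n = 6 each), with a log2 fold change of -0.64 (95% interval -1.90 to 0.63) and an exact permutation p of 0.348. The log2 fold change was -0.33 without LNA29 liver 50, -0.35 without LNA29 liver 48 and -0.97 without LNA29 liver 46.

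Lamc1 and Lamb2 encode a γ and a β chain, which join an α chain in the laminin heterotrimer. Lamc1 ran from 190 through 352 to 474 in saline livers and from 341 through 429 to 623 in LNA29 livers, on 12 to 41 reads. Its log2 fold change was 0.45 (95% interval -0.07 to 0.97), with an exact permutation p of 0.0844 and 5 of 6 LNA29 livers above the saline median. Without saline liver 47, the highest saline value, the exact p was 0.0433. Lamb2 ran from 290.0 through 373 to 579 in saline livers and from 220 through 297 to 509 in LNA29 livers, on 9 to 38 reads, with a log2 fold change of -0.32 (95% interval -0.88 to 0.23) and an exact permutation p of 0.249. The intervals of both chains include no change.

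Although the group means of these chains lay in opposite directions, their values followed each other closely among the LNA29 livers. The correlation of the log2 values over 6 livers was 0.99 (exact permutation p = 0.00139, Benjamini-Hochberg adjusted 0.00833 over the 6 relations computed), with the livers in the same order for both chains (Spearman's rho 1.0, p = 0.00278, adjusted 0.0167). Without the 2 livers farthest from the median of Lamc1 it was 0.92. In saline livers it was -0.14 (rho 0.03, exact permutation p = 0.781 and 1.0), and the difference between the groups was not tested. Lamc1 and Nid1, which binds the laminin γ chain, had a correlation of -0.14 in saline livers (rho -0.31, exact permutation p = 0.796 and 0.564) and 0.07 in LNA29 livers (rho -0.26, p = 0.888 and 0.658). Both turned sign without the 2 livers farthest from the median of Lamc1, to 0.38 and -0.55.

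Nid1 encodes nidogen, which links the laminin and collagen networks. It ran from 123 through 262 to 600.0 in saline livers and from 358 through 458 to 613 in LNA29 livers, on 7 to 60 reads. The overlap came from saline livers 49 and 43, at 600.0 and 391, while the other 4 saline livers lay below every LNA29 liver. The means were 298 ± 176 and 483 ± 103 (SD, n = 6 each), and the log2 fold change was 0.87 (95% interval 0.18 to 1.56), with an exact permutation p of 0.0346 and a limma adjusted p of 0.459. The exact p was 0.00433 without saline liver 49, and it was under 0.05 in 3 of the 12 sets that leave out 1 liver, with a highest value of 0.0779.

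Hspg2 encodes perlecan, a large heparan sulfate proteoglycan that binds growth factors and the other networks. It ran from 1141 through 1461 to 2316 in saline livers and from 1350 through 1856 to 4132 in LNA29 livers, on 64 to 219 reads. The value of 4132 in LNA29 liver 48 stood above the next highest LNA29 liver, at 2446. The log2 fold change was 0.39 (95% interval -0.14 to 0.91), with an exact permutation p of 0.216, and it was 0.18 without LNA29 liver 48.

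Pxdn encodes peroxidasin, the peroxidase that forms the sulfilimine crosslinks of type IV collagen. It ran from 40.4 through 83.8 to 150.0 in saline livers and from 94.3 through 162 to 338 in LNA29 livers, on 3 to 27 reads. Of the LNA29 livers, 3 lay above every saline liver. The means were 91.9 ± 45.0 and 193 ± 102 (SD, n = 6 each), and the log2 fold change was 1.05 (95% interval 0.16 to 1.93), with an exact permutation p of 0.0411 and a limma adjusted p of 0.509. The exact p was under 0.05 in 5 of the 12 sets that leave out 1 liver, with a highest value of 0.0866.

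**Figure D2:**
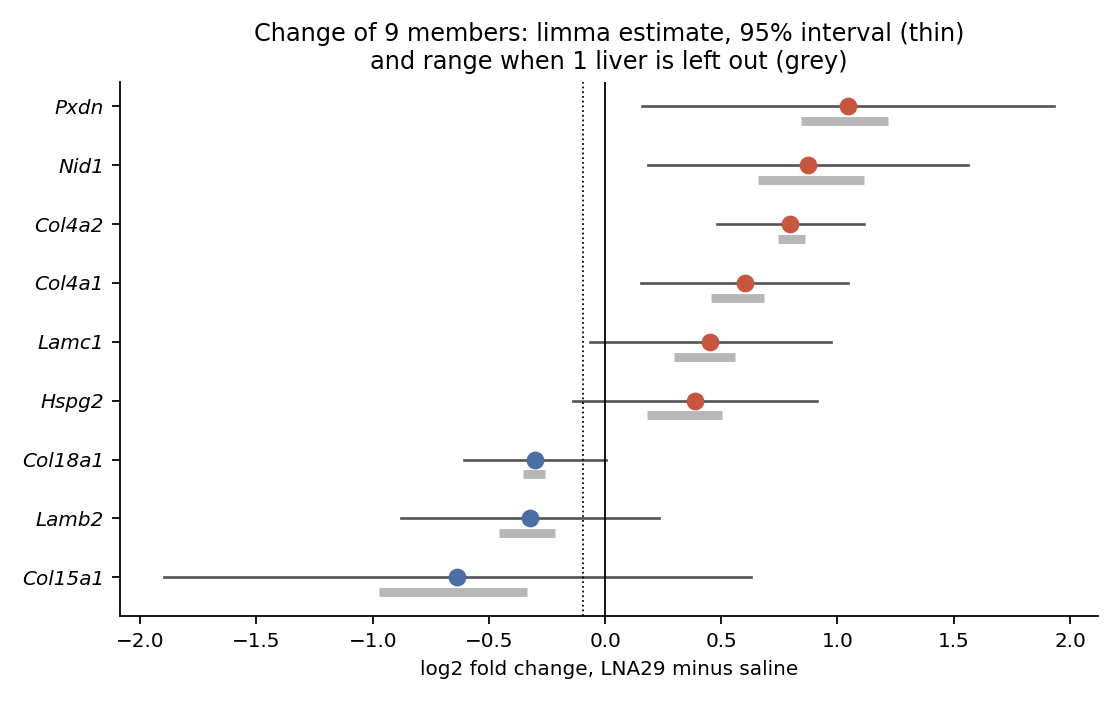
Log2 fold change (LNA29 minus saline, on log2 of value + 1) of the 9 basement membrane genes with more than 3 reads in a liver, with limma's 95% interval as a thin line and the range over the 12 sets that leave out 1 liver as a grey bar. The solid vertical line is at 0 and the dotted line at the median of all genes tested, -0.09; no grey bar crosses 0, and the intervals of Pxdn, Nid1, Col4a2 and Col4a1 lie above it.

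When genes were instead selected by a 1.5-fold ratio between group means together with a one-tailed p up to 0.05 without adjustment, as in the methods of the study, 3 of the 10 genes passed (Col4a2, Nid1 and Pxdn), against 6.10% of all genes tested. The ratio for Col4a1 was 1.49. Among the 9 genes with enough reads, the 5 with a seed match had a median log2 fold change of 0.60 with 4 higher and 1 lower, and the 4 without a match had a median of 0.04 with 2 higher and 2 lower. Over all genes tested, the median was -0.04 for the 1877 with a match and -0.10 for the 10268 without. In the main limma fit Nid1, without a match, had a larger log2 fold change than Col4a2, with 2 (0.87 and 0.80). Limma's interval for Nid1, from 0.18 to 1.56, includes the value of Col4a2. The order was reversed by edgeR (0.74 and 0.86) and DESeq2 (0.77 and 0.87). It was also reversed in limma without saline liver 47 or 51, and kept when any other liver was left out. Col15a1, with 1 match, was lower on average, on 1 to 14 reads and with an interval from -1.90 to 0.63.

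The libraries differed in how strongly long transcripts were represented. The Spearman correlation across genes of a liver's deviation with transcript length ran from -0.30 in saline liver 47 to 0.49 in saline liver 49, and from -0.24 to 0.25 in LNA29 livers, with medians of -0.08 and 0.01. In a limma fit with this length trend as a covariate, 23.9% of all genes tested followed it (adjusted p under 0.05), and so did Nid1, Col4a1 and Pxdn, with slopes of 2.01, 1.16 and 2.34 log2 units per unit of the trend and limma adjusted p of 0.00855, 0.0186 and 0.0266. The slopes of Lamb2 and Hspg2 were -1.22 and -1.21 (limma adjusted p = 0.0710 and 0.0573). That of Col4a2 was -0.29 (limma adjusted p = 0.506). With the trend in the fit, the treatment difference of Col4a2 was 0.79 (limma adjusted p = 0.00630), where 1.001% of all genes tested were called. Those of Col4a1 and Nid1 were 0.62 and 0.91 (limma adjusted p = 0.0614 and 0.0681), and that of Pxdn was 1.09 (limma adjusted p = 0.136). These differences lay close to those without the trend, 0.80, 0.60, 0.87 and 1.05 in the same order. After the trend was removed, the correlation of Lamc1 with Lamb2 was 0.98 in LNA29 livers and -0.23 in saline livers, and that of Lamc1 with Nid1 was 0.57 and 0.020.

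**Figure D3:**
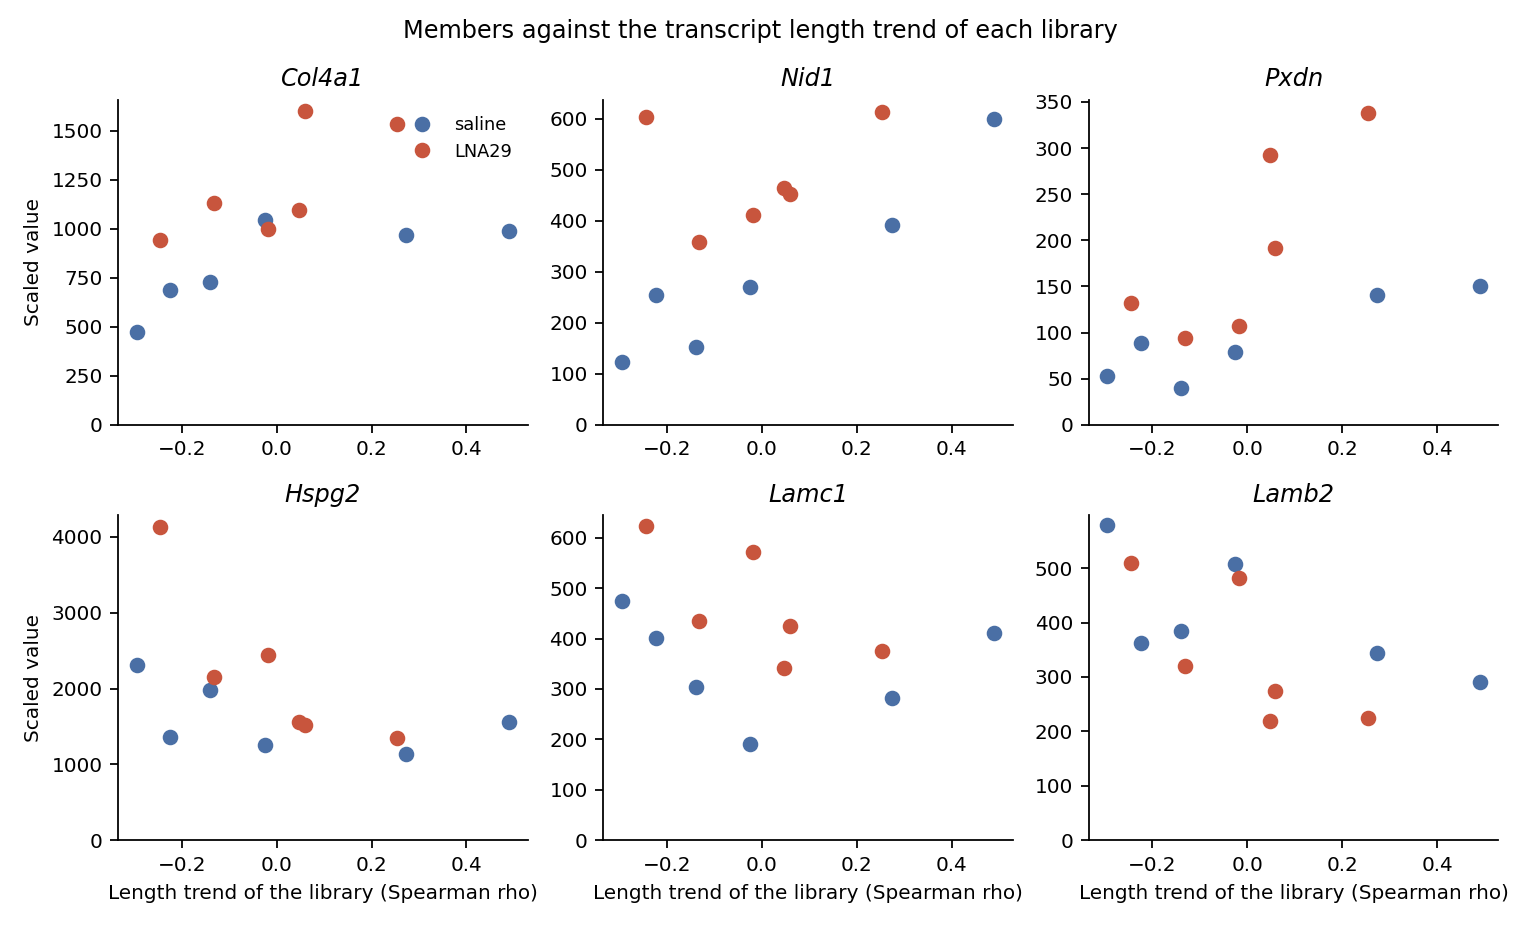
Deposited value (linear axis from 0) of 6 basement membrane genes in each liver against the length trend of its library, the Spearman correlation across genes of the liver's deviation with transcript length. For Nid1, 4 saline livers from 123 to 270 lie below every LNA29 liver, and the saline liver at 600.0 is the one with the highest trend, 0.49.

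Col4a1 was also set against the 8989 other genes with a mean of at least 100, by the mean of its Pearson correlation within the saline and within the LNA29 livers. Among the most alike were Trim14, Osbpl1a and Mkrn1, with means from 0.92 to 0.96. The basement membrane genes lay lower, with means of 0.61 for Pxdn, 0.48 for Nid1, 0.29 for Col18a1, 0.02 for Col4a2, -0.62 for Lamb2, -0.64 for Lamc1 and -0.79 for Hspg2. All of these rest on 6 livers per group, which share depth and the length trend.

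A list of 24 other basement membrane components in the table held 8 genes with at most 3 reads in every liver, among them Col4a4, Col4a6, Col7a1, Lama2, Lama3, Frem1 and Frem2. Of the 17 components tested, 5 were higher and 12 lower on average, with a median log2 fold change of -0.35. Livers without reads weigh on these log2 values. Fbln1 and Fras1 counted as lower, at -0.93 and -0.80, although their ratios of LNA29 to saline means were 1.01 and 1.25. Lamb3, which had reads in every liver (8 to 54), went the other way, at 0.14 with a ratio of 0.96. The median was the value of Lama1, on 0 to 11 reads and with a ratio of 0.94. None had a limma adjusted p under 0.05, nor one by edgeR or DESeq2, and 2 had an unadjusted limma p under 0.05, both higher, against 7.91% of all genes tested in either direction. Tinagl1, a matricellular glycoprotein gene named here because its exact p was under 0.05, ran from 938 through 1611 to 2051 in saline livers and from 1638 through 2005 to 2340 in LNA29 livers, with a log2 fold change of 0.45 (exact permutation p = 0.0476, limma adjusted p = 0.545). The largest difference in the higher direction at a mean of at least 100 was that of Smoc2, a calcium-binding matrix protein gene, at 0.78 (limma adjusted p = 0.631), and in the lower direction that of Lamb1, a laminin β chain gene, at -0.57 (limma adjusted p = 0.763).

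Of 15 receptor genes tested, among them the integrins, dystroglycan, the discoidin domain receptors and syndecans, 6 were higher and 9 lower, with a median log2 fold change of -0.13. None had an adjusted or unadjusted p under 0.05 by limma, edgeR or DESeq2. At a mean of at least 100 the largest differences were 0.63 for Gpc1, a glypican gene, and -0.49 for Dag1, the dystroglycan gene (limma adjusted p = 0.816 and 0.850).

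The enzymes and chaperones that fold and modify collagen chains were tested for 19 of 23 genes, of which 12 were higher and 7 lower, with a median log2 fold change of 0.03. None had a limma or edgeR adjusted p under 0.05, DESeq2 called 1 (Lepre1), against 0.744% of all genes tested, and 3 had an unadjusted limma p under 0.05, against 7.91%. Lepre1, which encodes a prolyl 3-hydroxylase of collagen, ran from 298 through 332 to 397 in saline livers and from 390 through 547 to 767 in LNA29 livers, with a log2 fold change of 0.68 (exact permutation p = 0.00433, limma adjusted p = 0.257). Serpinh1, the collagen chaperone HSP47, ran from 206 through 297 to 365 in saline livers and from 315 through 401 to 651 in LNA29 livers (log2 fold change 0.58, exact permutation p = 0.0130, limma adjusted p = 0.498), and is named because of its exact p. P4hb, protein disulfide isomerase and the β subunit of prolyl 4-hydroxylase, ran from 44300 through 48138 to 56677 in saline livers and from 30340 through 34197 to 46877 in LNA29 livers, with a log2 fold change of -0.44 (exact permutation p = 0.00649, limma adjusted p = 0.413). In all 3 genes the groups overlapped.

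**Figure D4:**
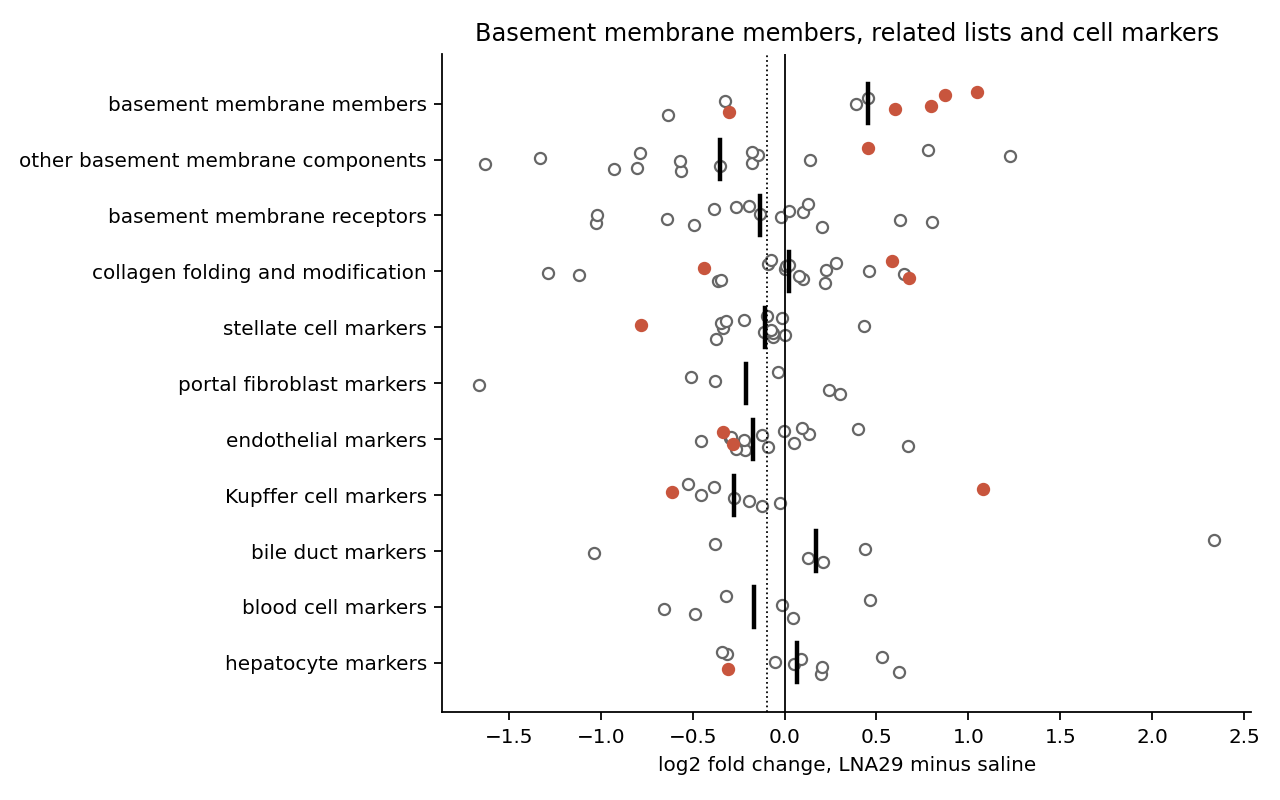
Log2 fold change (LNA29 minus saline) of each tested gene with more than 3 reads in a liver, for the basement membrane genes, 3 related lists and 7 lists of cell markers; filled points have an exact permutation p under 0.05 and black bars are medians over the points. The dotted line is the median of all genes tested, -0.09; the bar of the basement membrane genes is at 0.45 and the other bars lie nearer to the dotted line.

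Markers of the liver cells that could carry these messages were measured beside them. Their counts stand beside 7671 lower genes among all 12486 tested, with a median log2 fold change of -0.09. The summed level of 15 stellate cell markers ran from 17730 to 27421 in saline livers and from 18055 to 22831 in LNA29 livers. Most of this sum was Ecm1, with means of 15772 in saline livers and 14358 in LNA29 livers. Of the 15 markers, 13 were lower on average (median log2 fold change -0.11). Among 16 endothelial markers, 11 were lower (median -0.17), with sums of 15730 to 19920 and 13755 to 17833. Among 9 Kupffer cell markers 8 were lower (median -0.27), with sums of 8219 to 12137 and 6982 to 16247. Portal fibroblast markers summed to 1432 to 2491 and 1247 to 2830, mostly from Gas6 (means 1502 and 1179), with 4 of 6 lower. Bile duct markers summed to 605 to 907 and 441 to 1171, with 4 of 6 higher. Blood cell markers were lower for 4 of 6 genes and hepatocyte markers higher for 6 of 10. Hgf among the stellate markers, Msln and Clec3b among those of portal fibroblasts and Cftr among those of bile ducts had at most 3 reads in every liver. No marker had an adjusted p under 0.05 by limma, edgeR or DESeq2, and 5 of the 68 tested (7.35%) had an unadjusted limma p under 0.05, against 7.91% of all genes tested (Hgf, Ngfr, Stab1 and Folr2 lower, Marco higher), which are named because of those values. The part of cell composition in the differences of the basement membrane genes was not tested.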

How the data were processed

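Livers of 6 saline and 6 LNA29 mice were sequenced as single reads from polyadenylated RNA on an Illumina HiSeq 2000. The authors mapped reads with MapSplice2 and quantified genes with RSEM (build mm9 in the submitters' processing notes; versions are not given in the sources used here). The deposited signal for a gene is its reads divided by the upper quartile of the library and multiplied by 1000, and a gene without reads stands at 1. Deposited group means, fold changes and p-values of the authors were not used, nor were 2 unnamed columns of values. One read has a fixed worth in each library, and 92.2% to 93.9% of values came out as whole reads (within 0.02). All values, whole or not, were rounded to reads and used, with 3 reads as the floor.

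Differences were tested with limma 3.58.1 (R 4.3.3, trend) after adding 1 and taking log2, for the 12486 genes whose mean reached 10, at a Benjamini-Hochberg adjusted p of 0.05, and for single genes with two-sided exact permutation tests over livers (Python 3.11.15, scipy 1.17.1). On this scale a liver without reads stands at 1, where 1 read is worth at least 9.80. Such a liver can enlarge or turn the log2 fold change of a low gene. Alternatives were pseudocounts of 0.1 and 10, no filter or a mean of at least 100, a common median, discarding of values beyond 1.5 SD, a length trend covariate, edgeR 4.0.16, DESeq2 1.42.0, the thresholds of the study and leaving out each liver. The correlations without the length trend and the slopes on it were added after seeing the data. Scripts were tested on simulated reads.

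Seed matches were read from GENCODE M21 (GRCm38), which differs from the build of the files, so that its coordinates were not joined to theirs. All basement membrane genes are named, with every gene of a related list past the limma threshold, the largest differences in each direction at a mean of at least 100, and genes from the 5 most like Col4a1; some items under these rules are not reported here. The basement membrane genes and the lists were chosen with earlier results of these data known. Each liver is labelled as a separate sample, and p-values measure the spread between these livers only.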

Additional observations from a re-analysis of the deposited data

How the results depend on the processing

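The limma call of Col4a2 was kept with both other pseudocounts, both other filters, discarding, the length trend covariate, edgeR (adjusted p = 0.0104) and DESeq2 (adjusted p = 4.49e-05). It was lost with a common median (log2 fold change 0.84, limma adjusted p = 0.0727), where 0.0801% of all genes tested were called, and without each liver in turn, so that 0 of the 10 genes were called there. Without 1 liver its log2 fold change ran from 0.75 to 0.86. The share of all genes called in those fits is not given, so that the loss cannot be set beside the other genes. By the thresholds of the study, 3 of the 10 genes, 3 other basement membrane components (Smoc2 higher, Lama4 and Frem1 lower) and 3 folding genes (Serpinh1 and Lepre1 higher, Leprel1 lower) passed, against 6.10% of all genes tested. Frem1 and Leprel1, with at most 2 reads in a liver, were below the filter of the limma test. DESeq2 called 1 folding gene (Lepre1), against 0.744%. The count of exact permutation p under 0.05 was 5 with both other pseudocounts, a common median and discarding, and from 3 to 5 when 1 liver was left out. The share of all genes tested is given for the main setting only, 8.50%, so that these counts cannot be read as more or fewer than among all genes. The count of genes whose groups did not overlap was 2 with a common median (Col4a2 and Col4a1), where 0.833% of all genes tested did not overlap, and 2 with discarding (Col4a2 and Col18a1), where 5.40% did not. It was from 1 to 2 when 1 liver was left out, against 1.13% to 1.63%, with Col18a1 added without saline liver 45. Over the 10 genes the median was 0.60 on the log2 scale by DESeq2 and from 0.27 to 0.58 when 1 liver was left out. At 0 to 3 reads limma's fitted value for Col4a5 is no measured change, and it turned to -0.15 without saline liver 51 or 53 and to -0.093 without LNA29 liver 50, within a range from -0.15 to 0.86.

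With a common median the correlation of Col4a1 with Col4a2 in LNA29 livers was -0.066 and that of Lamc1 with Lamb2 in saline livers 0.18. With the length trend removed, that of Col4a1 with Col4a2 in saline livers was 0.50 and that of Lamc1 with Nid1 in saline livers 0.020. Without the 2 livers farthest from the median, that of Col4a1 with Col4a2 in LNA29 livers was -0.87 and those of Lamc1 with Nid1 were 0.38 and -0.55. The seed was matched in 6 of the 10 genes over any annotated 3′ UTR and in 5 with 8 bases. The causes of these shifts were not tested. No paired analysis was run. The saline and LNA29 livers share no replicate numbers, and the labels do not say whether livers with neighbouring numbers share a cage or batch.

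Depth limits Col4a5, Col15a1 and Pxdn most, with at most 27 reads per liver, and edgeR's filter left these 3 genes out. Of 20 groups of livers checked, 0 held a liver far from the other 5 by Dixon's test, where chance gives about 1.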
